A study of Drosophila melanogaster with 6 samples.

Results

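The muscle sarcomere genes of the fly head are a list of 31 genes that encode the filaments, the Z-disc, the calcium switch and the energy supply of striated muscle. Every probe set whose annotation named one of these genes alone, by its current symbol or a synonym, was taken. That gave 39 probe sets for 24 of the 31 genes, out of 11982 genes named in all. The other 7 genes (Mhc, Tm1, wupA, TpnC47D, TpnC25D, Act57B and Mef2) had no probe set named for them alone in the platform annotation, and they were not analysed here. Of the 24 genes, 19 were listed under muscle in general or its tubular type, and 5 under the flight and jump muscles of the thorax. Of those 5, Act88F, fln and TpnC4 are genes of the indirect flight muscle. The jump muscle, under which TpnC41C and Act79B were listed, is itself tubular.

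The study asked what the loss of Sex-lethal (Sxl), the switch gene of female development, does to gene expression in male heads of Drosophila melanogaster. The deletion males carried Sxlfp7BO, which removes the Sxl locus, together with mutant alleles of the flanking markers carmine (cm) and cut (ct). The controls were their wild-type brothers from single-pair crosses, labelled as the Oregon-R strain, into which the deletion had been crossed repeatedly. All flies were adult males, 2 to 5 days old and raised at 25 °C, and the heads were cut off on ice and put in TRIzol. Each genotype was measured on 3 Affymetrix arrays, called biological replicates in the labels, which do not say how many heads went into each. Differences cannot be assigned to Sxl alone, because cm, ct and linked sequence differ as well.

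The sarcomere is the contractile unit of striated muscle. Thick filaments of myosin slide along thin filaments of actin, and calcium, through troponin and tropomyosin, sets when they may do so. The muscles of the fly head, which move the proboscis, the pharynx and the antennae, are of the tubular type, with contractions timed by single nerve impulses. The indirect flight muscles fill the thorax, are fibrillar and stretch-activated, and use some proteins of their own. Transcripts of those proteins in a head sample can serve as a sign of thorax tissue carried over at decapitation.

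The arrays were alike in median intensity and in correlation over all probe sets. Their medians lay between 14.2 and 14.6, and they correlated with each other at 0.994 to 0.998 on the log2 scale. These measures do not show shifts in groups of genes, which are described by array below. The 3 Sxl probe sets had no value above 6.26 in deletion males and none below 88.8 in wild-type males, which matches the labels. The head-patterning gene Dfd had intensities of 168, 202 and 168 in deletion males, against 158, 172 and 193 in wild-type males. Of the other genes listed with Dfd, only pb and Scr had a named probe set, and both were dimmer. The gene pb stayed between 7.89 and 9.42 on all arrays. Scr had 16.97, 19.9 and 20.3 in deletion males, against 18.3, 29.2 and 30.2 in wild-type males. Photoreceptor genes were bright, with trp, a channel of the light response, from 4623 to 5003 in deletion males and from 2661 to 3836 in wild-type males. Of the defining trunk genes Antp, Ubx, abd-A and Abd-B, only Antp had a named probe set, and its 3 probe sets stayed between 4.62 and 17.5 on all arrays. On every array the head gene pb read lower than the brightest Antp probe set. Whether the dim Antp signal means little trunk RNA was not tested.

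No muscle gene passed the test for a difference between deletion and wild-type males. Values are linear array intensities as deposited, and differences were tested with limma on log2(intensity + 1), with p adjusted over all 11261 probe sets tested and a threshold of 0.05. Of the 39 muscle probe sets 36 were bright enough to be tested, and none was called, where 2.60% of all tested probe sets were. The smallest limma adjusted p among the 36 was 0.313. With the replicate number as a block in the fit, again none of the 36 was called (smallest limma adjusted p = 0.125), against 7.40% of all probe sets (3.42% higher and 3.98% lower in deletion males). Before adjustment, a limma p under 0.05 was found for none of the 36 without the block, against 17.6% of all. With the block it was found for 5 of the 36 (the brightest probe sets of Prm, up, Act87E and Zasp66 and a dim one of Mlp60A), against 22.7% of all. In bulk heads, fewer muscle cells and less RNA per muscle cell cannot be told apart.

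The 95% intervals give the range of differences compatible with the values of each probe set. They are not adjusted for the number of probe sets tested, so they are not the limits of the test. For 33 of the 36 probe sets the 95% interval of the fold, deletion over wild type, lay within 1.5-fold in either direction, and for 19 within 1.25-fold. The exceptions to the wider bound were TpnC73F, fln and TpnC4. Taking the brightest probe set of each gene, the general and tubular genes had log2 differences from -0.15 to 0.21 with a median of 0.03, 12 of 19 above 0. The 5 flight and jump muscle genes had a median of -0.0017, the value of Act79B, with 2 of them above 0. The 3 indirect flight muscle genes alone had a median of 0.22. Of these, fln and TpnC4 were above 0, with wide intervals, and Act88F was below 0. Over all tested probe sets the median was 0.0044, and 51.3% were above 0.

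**Figure D1:**
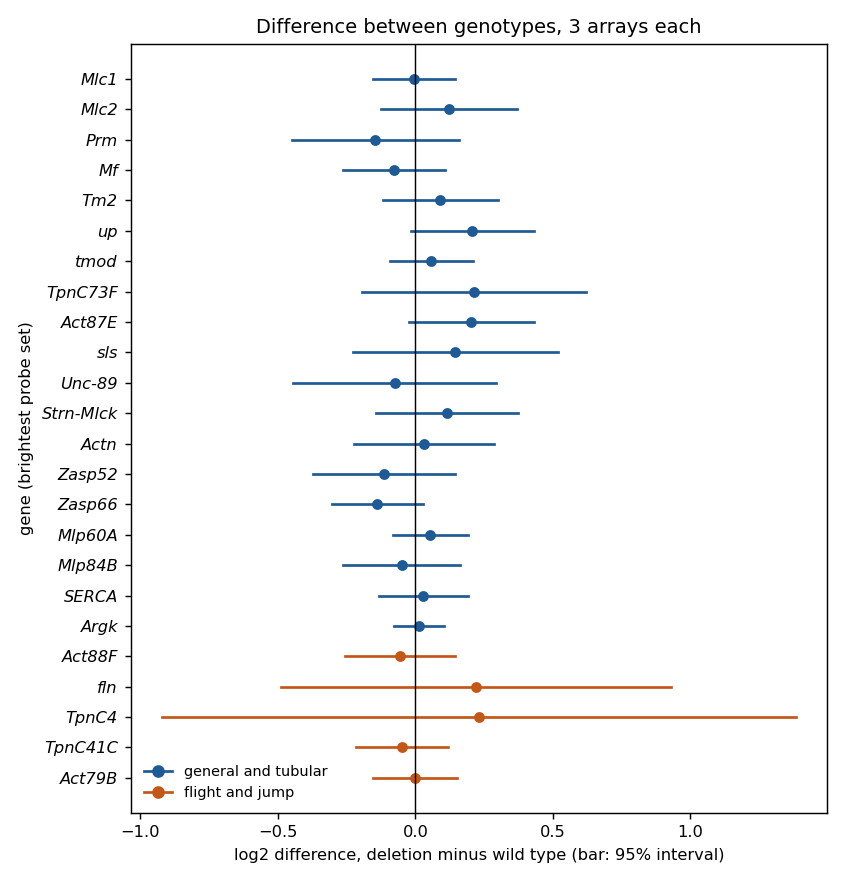
Log2 difference of deletion minus wild-type males (horizontal axis) for the brightest probe set of each of the 24 genes, with its 95% interval from limma as a bar; blue marks general and tubular muscle genes, orange flight and jump muscle genes. All 24 intervals include 0, and those of fln and TpnC4 are the widest, reaching 0.93 and 1.38 at the upper end.

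Of the 4 thick filament genes, 1 had a positive and 3 had a negative difference, none past the test. Mlc1, the essential light chain of myosin, had intensities of 1105, 1098 and 1102 in deletion males, against 999, 1147 and 1181 in wild-type males. The deletion values all lay inside the wild-type range. The fold was 0.996 (95% interval 0.898 to 1.10), with a limma adjusted p of 0.978. Mlc2, the regulatory light chain, had 727, 801 and 811 in deletion males, against 599.6, 762 and 801 in wild-type males. The wild-type array numbered 1 was the low one, and the groups overlapped, with a fold of 1.09 (0.918 to 1.29, limma adjusted p = 0.621).

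Paramyosin (Prm), which forms the core of the insect thick filament, was measured by a pair of probe sets. The brighter read 428, 496 and 527 in deletion males, against 433, 586 and 598 in wild-type males. In each genotype the array numbered 1 was the lowest. Its fold of 0.904 (0.732 to 1.12, limma adjusted p = 0.636) and the fold of 1.06 (0.848 to 1.33) on the other probe set lay on opposite sides of 1, each interval covering the other's estimate. The brighter Prm probe set was lower in deletion males in all 3 pairs of equal number, with a limma adjusted p of 0.165 with the block. Myofilin (Mf), a thick filament protein of insect muscle, had 2701, 2910.4 and 2878 in deletion males, against 2611, 3141 and 3239 in wild-type males, with the deletion values again inside the wild-type range. Its folds were 0.948 and 0.972 on its probe sets, with limma adjusted p of 0.693 and 0.811.

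The 5 thin filament genes of general muscle (up, Tm2, tmod, TpnC73F and Act87E) had positive differences, none past the test. Their size rested in part on wild-type replicate 1. Without that array the log2 difference was 0.09 for up, -0.0040 for Tm2, 0.0016 for tmod, 0.02 for TpnC73F and 0.13 for Act87E. The troponin T gene up, which ties troponin to tropomyosin, had intensities of 431, 462 and 423 in deletion males, against 324, 408 and 414 in wild-type males. Its lowest deletion value was above its highest wild-type value by a narrow margin, and the wild-type array numbered 1 stood well below the other five. The fold was 1.15 (0.989 to 1.35), with a limma adjusted p of 0.322. The groups were apart in this way, always with deletion males higher, for 3 of the 36 tested muscle probe sets, against 24.0% of all tested probe sets (12.1% with deletion males higher). The others were dim probe sets of tmod and Mlp60A.

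Tropomyosin 2 (Tm2), the rod that covers the myosin sites on actin, had 389, 448 and 424 in deletion males, against 345, 424 and 418 in wild-type males. The groups overlapped, at a fold of 1.07 (0.921 to 1.23, limma adjusted p = 0.674). Tropomodulin (tmod), which caps the slow-growing ends of the thin filament, had 592, 579 and 569.6 in deletion males, against 515, 552 and 608 in wild-type males on its brighter probe set. The fold there was 1.04 (0.939 to 1.16). Its dim probe set, from 31.8 to 34.9 in deletion males and from 28.4 to 31.1 in wild-type males, had a fold of 1.12 (0.988 to 1.27, limma adjusted p = 0.334).

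TpnC73F, a troponin C, the subunit that binds the calcium, had 53.2, 64.1 and 64.3 in deletion males, against 39.3, 65.7 and 53.8 in wild-type males. Its spread within a genotype was larger than that of 97.0% of tested probe sets, so the fold of 1.16 has a wide interval, 0.874 to 1.54 (limma adjusted p = 0.596). Its other probe set read at most 5.59 on every array and was not tested. Act87E, a muscle actin, had 561, 611 and 487 in deletion males, against 429, 520.1 and 489.6 in wild-type males. The fold was 1.15 (0.983 to 1.35), with a limma adjusted p of 0.342 and 0.154 with the block. The suffix of its name marks a probe set that can detect several transcripts, and muscle actin genes are nearly identical, so other actins may add to this signal. The brightest probe sets of Tm2, tmod, Mlp84B and SERCA and the dimmer one of Prm carry the same suffix.

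**Figure D2:**
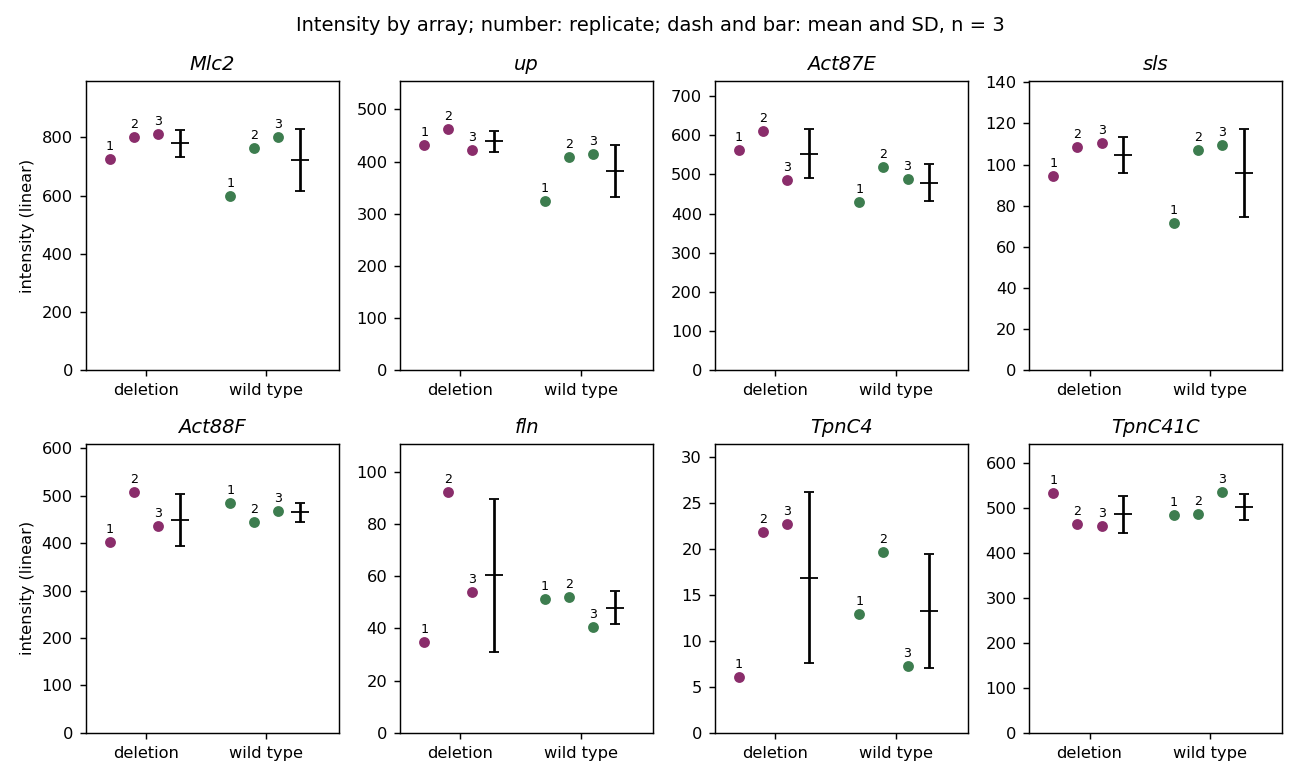
Linear intensity (vertical axis, from 0) of the brightest probe set of 8 genes in deletion males (purple) and wild-type males (green); points are arrays with their replicate number, and the dash and bar give the mean and SD of 3 arrays. Wild-type replicate 1 is the lowest of the 6 arrays for Mlc2, up, Act87E and sls, whereas deletion replicate 1 is the lowest for Act88F, fln and TpnC4.

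Among the giant proteins and the Z-disc proteins, 3 genes had positive and 3 had negative differences, none past the test. Sallimus (sls), the titin-like spring that joins the Z-disc to the thick filament, had 94.5, 108 and 111 in deletion males, against 71.4, 107 and 109 in wild-type males on its brightest probe set. Wild-type replicate 1 was the lowest, and without it the log2 difference was -0.05. The fold was 1.11 (0.855 to 1.43), and its other probe sets had folds of 0.939 (0.718 to 1.23) and 0.959 (0.684 to 1.34). All 3 of its probe sets were among the more variable ones, with a within-genotype spread above that of at least 95.7% of tested probe sets.

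Obscurin (Unc-89, now Obsc), a giant kinase of the M-line in the middle of the sarcomere, had 118, 129 and 138 in deletion males, against 102, 154 and 156 in wild-type males. The deletion values lay inside the wild-type range, at a fold of 0.949 (0.735 to 1.23). Strn-Mlck, which encodes stretchin and myosin light chain kinase forms, had 354, 397 and 387 in deletion males, against 291, 388 and 380.0 in wild-type males, and a fold of 1.08 (0.907 to 1.29). Its dim tested probe set had 0.950 (0.825 to 1.09). The remaining probe set of each of these genes was too dim to be tested, with values of at most 10.3.

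Alpha-actinin (Actn), the cross-linker of thin filaments at the Z-disc, had 234, 281 and 293 in deletion males, against 229, 275 and 287 in wild-type males. The arrays with the same number came out almost level in the pair, and the fold was 1.02 (0.856 to 1.22). Zasp52, a PDZ and LIM protein that binds alpha-actinin, had 590.2, 625 and 640.3 in deletion males, against 554, 703 and 771 in wild-type males, with a fold of 0.924 (0.772 to 1.10). Its relative Zasp66 had 1178, 1269 and 1193 in deletion males, against 1205, 1459 and 1354 in wild-type males. That fold of 0.908 (0.810 to 1.02) had a limma adjusted p of 0.37, and 0.125 with the block, the smallest of any muscle probe set. The other Zasp66 probe sets had folds of 0.973 and 1.01. Actn and up are the X-linked genes of the set that were measured, and they lie 567 genes from Sxl on the side of cm and 754 genes from it on the side of ct, both outside the marked interval.

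The genes of the muscle LIM proteins, Mlp60A and Mlp84B, did not differ past the threshold. Mlp60A had 2033, 1956 and 2098 in deletion males, against 1812, 1959 and 2099 in wild-type males on its brightest probe set, a fold of 1.04 (0.944 to 1.14). Its dim probe sets had folds of 1.17 (0.991 to 1.39) and 1.15 (0.951 to 1.40), the first of these with the smallest limma adjusted p of the set, 0.313. Mlp84B had 625, 683 and 700.2 in deletion males, against 600.5, 722 and 764 in wild-type males. Its groups overlapped, at a fold of 0.966 (0.834 to 1.12, limma adjusted p = 0.848).

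The genes of calcium return and energy supply were level between the genotypes within narrow intervals. SERCA, the pump that returns calcium to the sarcoplasmic reticulum, had 2512, 2692 and 2605 in deletion males, against 2282, 2667 and 2725 in wild-type males. The folds on its 3 probe sets were 1.02, 0.958 and 0.952, the widest interval running from 0.815 to 1.11. Arginine kinase (Argk, now Argk1), which keeps a store of high-energy phosphate, had 4411, 4486 and 4625 in deletion males, against 4304, 4579 and 4519 in wild-type males. Its fold of 1.01 had an interval of 0.947 to 1.07, and 8.44% of tested probe sets had a spread as small. SERCA, Argk, Actn and tmod also work outside muscle, so their signal in heads is not muscle alone.

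The flight muscle genes gave signal in head RNA of both genotypes, and fln and TpnC4 varied widely among arrays of the same genotype. Act88F, the actin of the indirect flight muscle, had intensities of 401, 508 and 437 in deletion males, against 484, 444 and 467 in wild-type males. The groups overlapped, at a fold of 0.962 (0.838 to 1.10, limma adjusted p = 0.808). Flightin (fln), a thick filament protein of that muscle, had 34.7, 92.3 and 53.9 in deletion males, against 51.2, 52.2 and 40.6 in wild-type males. The deletion arrays alone spanned the whole range, which was 2.66-fold from the lowest to the highest. The fold between genotypes was 1.17 with an interval of 0.713 to 1.90 (limma adjusted p = 0.786).

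TpnC4, the troponin C that serves stretch activation in flight muscle, had 6.13, 21.9 and 22.7 in deletion males, against 12.9, 19.7 and 7.30 in wild-type males. The values of 6.13 and 7.30 lie below 8.35, the mean intensity required for testing. Its fold of 1.17 (0.528 to 2.61, limma adjusted p = 0.871) has the widest interval of the set. The within-genotype spread of fln and TpnC4 was above that of 99.2% and 99.7% of tested probe sets, and that of Act88F above 66.6%. Differences of TpnC4 up to the limits of its interval could have been missed.

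The genes listed under the jump muscle were steadier. TpnC41C, a troponin C of flight and jump muscle, had 535, 464 and 461 in deletion males, against 484, 487 and 536 in wild-type males, a fold of 0.967 (0.860 to 1.09). Act79B, the actin of the jump muscle and of leg muscles, had 468, 537 and 496 in deletion males, against 474, 527 and 501 in wild-type males. Its fold was 0.999 (0.899 to 1.11), and its groups covered almost the same range. The widest range of the pair was 1.16-fold, that of TpnC41C.

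Most of the general and tubular muscle genes were lowest on the same array, wild-type replicate 1. To compare arrays, each gene's log2 value was set against its own mean over the 6 arrays. The median deviation of the 19 genes was -0.06, 0.03 and 0.05 on deletion replicates 1, 2 and 3, and -0.22, 0.06 and 0.10 on wild-type replicates 1, 2 and 3. Over all tested probe sets these medians stayed between -0.016 and 0.0094. Wild-type replicate 1 held the lowest of the 6 values for 17 of the 19 genes, as it did for 26.6% of all tested probe sets.

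The array numbered 1 was low in each genotype. Wild-type replicate 1 was the lowest of the 3 wild-type arrays for 19 of 19 genes, against 43.7% of all tested probe sets, and stood a median of 0.29 below the mean of the other wild-type arrays on the log2 scale. Deletion replicate 1 was the lowest of the 3 deletion arrays for 14 of 19, against 38.8% of all, with a median of 0.10 below. For 14 of 19 genes both held, against 22.8% of all tested probe sets. Genes of 1 tissue share their RNA, so these counts describe the arrays and are not a test. Between arrays of equal number, the median log2 difference of deletion minus wild type was 0.17 in pair 1, with 17 of 19 genes above 0. It was -0.0020 in pair 2 and -0.0079 in pair 3, with 9 and 8 genes above 0. Without wild-type replicate 1, 5 of 19 genes were above 0 in place of 12, and the median turned to -0.05. On those 5 arrays the most negative log2 differences were -0.30 for Prm, -0.28 for Unc-89, -0.25 for Zasp52, -0.21 for Zasp66 and -0.17 for Mf. None of them was called, with a limma adjusted p of 0.0991 for Prm, 0.103 for Unc-89, 0.0597 for Zasp52, 0.0673 for Zasp66 and 0.0754 for Mf.

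**Figure D3:**
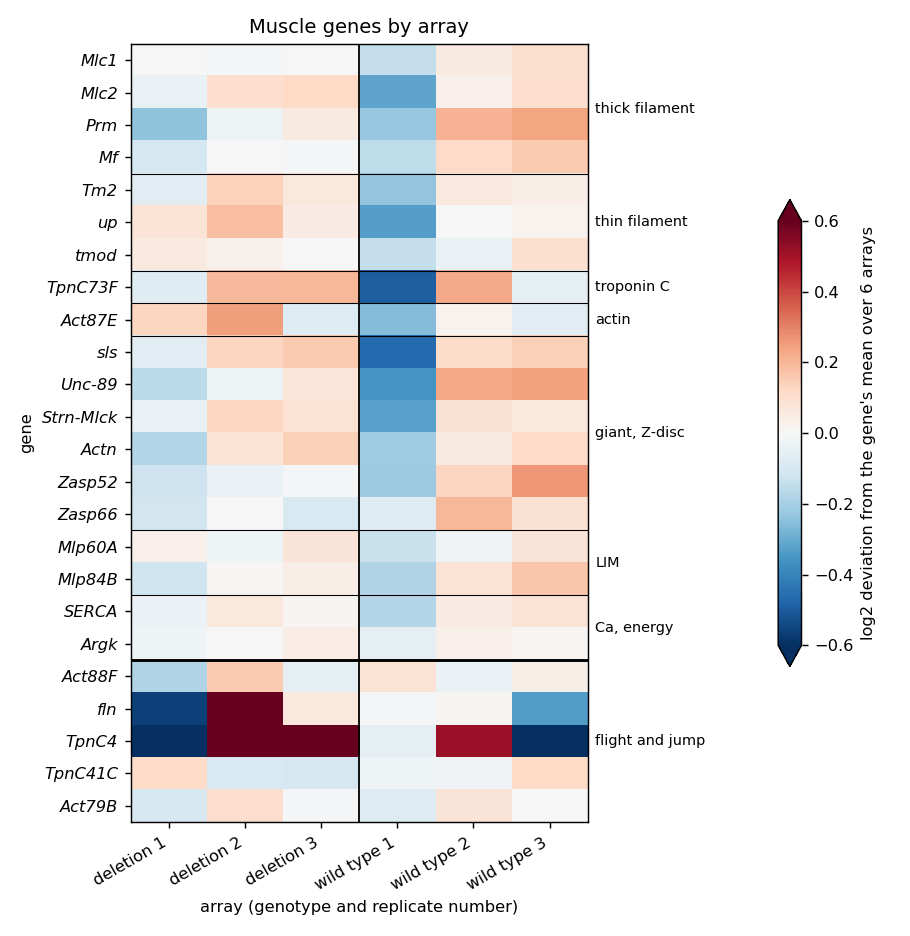
Log2 deviation of each gene from its mean over the 6 arrays (colour; red above, blue below, clipped at 0.6 in either direction), with deletion arrays left of wild-type arrays and genes grouped by role. The column of wild-type replicate 1 is blue for all 19 general and tubular genes above the thick line, whereas below it fln and TpnC4 are lowest on deletion replicate 1.

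The indirect flight muscle genes had their lowest value on another array. Act88F, fln and TpnC4 were all lowest on deletion replicate 1, with log2 deviations of -0.18, -0.56 and -1.02, and all above their mean on deletion replicate 2, with 0.16, 0.83 and 0.66. The large swings were those of the dim genes fln and TpnC4. On wild-type replicate 1 the deviations were 0.09 for Act88F, -0.01 for fln and -0.06 for TpnC4. On wild-type replicate 3 Act88F was above its mean (0.04), whereas fln (-0.34) and TpnC4 (-0.80) were below. Act79B was also lowest on deletion replicate 1 (-0.09) and highest on deletion replicate 2 (0.10), so that 4 of the 5 flight and jump muscle genes were lowest on deletion replicate 1. TpnC41C went the other way, with 0.11 and -0.09 on those arrays. Whether these genes differ from the general muscle genes across arrays was not tested. On its brightest probe set Antp, the trunk gene, had log2 deviations of 0.03, -0.06 and -0.28 on deletion replicates 1, 2 and 3, and 0.01, 0.23 and 0.07 on wild-type replicates 1, 2 and 3. Of its other probe sets, both too dim to be tested, one was lowest on deletion replicate 1 and the other on deletion replicate 2. The part of thorax tissue in the flight muscle values was not tested.

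**Figure D4:**
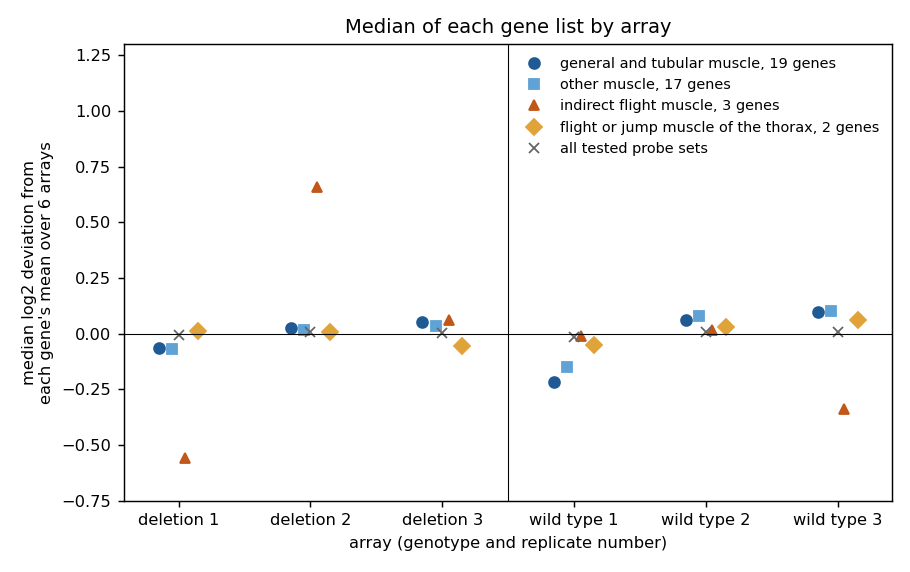
Median log2 deviation of each gene list on each array (vertical axis), deletion arrays left of the line and wild-type arrays right of it; each symbol is the median over the list's genes. General and other muscle genes dip on wild-type replicate 1 (-0.22 and -0.15), whereas the median of the 3 indirect flight muscle genes, of which fln and TpnC4 are dim, is lowest on deletion replicate 1 (-0.56) and highest on deletion replicate 2 (0.66).

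Many but not all muscle genes outside the set showed the same low array. From a list of 20, 18 had a named probe set and 17 could be tested, among them projectin (bt), the ryanodine receptor RyR and talin (rhea). None of their 28 tested probe sets was called, 8 of 17 genes were above 0, and the median log2 difference was -0.0064. On brightest probe sets the largest difference was that of jp, at -0.28 (limma adjusted p = 0.169). Its lowest value lay on deletion replicate 1, whereas bt, RyR and rhea were lowest on wild-type replicate 1. Wild-type replicate 1 held the lowest of the 6 values for 10 of 17 genes, against 26.6% of all tested probe sets. For the other genes the lowest value lay on a deletion array. Among the wild-type arrays alone it was the lowest for 15 of 17, against 43.7% of all, and its median deviation was -0.15. RyR, the channel that releases calcium for contraction, had 113, 126 and 131 in deletion males, against 85.3, 132 and 133 in wild-type males. With the block 1 of the 28 was called, against 7.40% of all tested probe sets. This was a probe set of the metabolic enzyme gene Gpdh1. It read 996, 1189 and 1169.9 in deletion males, against 1359, 1435 and 1461 in wild-type males, a log2 difference of -0.35 (limma adjusted p = 0.0513, 0.00786 with the block). All 4 Gpdh1 probe sets were lower in deletion males without overlap, but the other 3 were not called in either fit, and the enzyme is also abundant in fat body. Over the whole list 7 of the 28 tested probe sets did not overlap, against 24.0% of all tested probe sets. In deletion males 6 of them were lower, the 4 of Gpdh1 among them, against 12.0% of all.

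Only Mlc-c and Myo10A of 10 genes of actin and myosin outside the sarcomere had a named probe set. Mlc-c, the essential light chain of nonmuscle myosin, had 1187, 1193 and 1078 in deletion males, against 966, 988 and 963 in wild-type males. Its groups were apart, with a log2 difference of 0.24 (limma adjusted p = 0.051, 0.0209 with the block). Myo10A, an unconventional myosin, had 0.25 with a limma adjusted p of 0.247 and 0.0862 with the block. Both genes are X-linked. Whether they differ from the sarcomere genes was not tested.

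Other cell types also moved with wild-type replicate 1. All 3 neuronal markers with a named probe set (elav, nSyb and brp) and both photoreceptor markers (trp and chp) had their lowest value on that array, with median deviations of -0.25 and -0.55. Of the fat body markers, the dim Fbp1 was lowest there, whereas Lsp2 had its highest value and apolpp was above its mean, for a median deviation of 0.04. The glial markers repo and nrv2, with a median deviation of -0.05, were not lowest there, although that array was the lower end of the wild-type values for both. RNA integrity can be read from control probes placed at the 3' and the 5' end of a transcript. Their ratio was highest on wild-type replicate 1 for Act5C, at 5.20, against 3.83 to 4.69 in deletion males and 4.65 and 4.79 on the other wild-type arrays. For GAPDH it was the lowest of the 6 there, at 3.61, with 3.71 to 3.92 in deletion males. For eIF4a it was 3.55, the lowest of the wild-type values, the others being 3.73 and 4.08, with 3.30 to 3.47 in deletion males. The eIF4a ratio was thus higher on every wild-type array than on any deletion array, whereas the genotypes overlapped for Act5C and GAPDH. Several of the cell type markers also differed between the genotypes when tested with the block, where 7.40% of all tested probe sets were called. None of them did so without it, where 2.60% of all were called. The log2 difference, deletion minus wild type, was 0.55 for trp, 0.38 for chp, 0.30 for nSyb, -0.24 for nrv2 and -0.35 for Lsp2. With the block the limma adjusted p was 0.0217 for trp, 0.0459 for chp, 0.0433 for nSyb, 0.0377 for nrv2 and 0.00553 for Lsp2. The other markers of the same lists were not called with the block. Their log2 differences on brightest probe sets were 0.07 for elav, 0.08 for brp, -0.16 for repo, -0.08 for apolpp and 0.12 for Fbp1. Fbp1 thus went the other way from the fat body marker Lsp2. With the block their limma adjusted p was 0.498 for elav, 0.515 for brp, 0.0974 for repo, 0.2 for apolpp and 0.708 for Fbp1. The part of tissue make-up or RNA integrity in the low muscle values, or in differences between the genotypes, was not tested.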

How the data were processed

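The authors deposited 1 linear intensity per probe set and array. The summarisation, background correction and normalization behind them were not given in the sources used here. Since array medians were nearly equal, no further normalization was applied. Arrays have no read depth, and their number limits the precision. The table held 18952 probe sets, 183 of them controls that were dropped. A dimness filter kept 11261 probe sets whose mean log2(intensity + 1) reached the 40th percentile, equal to an intensity of 8.35. These were tested in R 4.3.3 with limma 3.58.1 (lmFit, then eBayes with an intensity trend), two-sided, with genotype as the only term and Benjamini-Hochberg adjustment over all tested probe sets. Folds and differences are deletion over or minus wild type on that scale. The procedure was tested on simulated data with changes put in. It called 22% of the 1.25-fold changes and 78% of the 1.5-fold changes.

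Genes were named from the platform annotation, updated by Entrez identifier through a RefSeq gene table (Release 6 plus ISO1 MT). Probe sets with several genes were not used. A gene with several probe sets is represented by its brightest. Further probe sets are described for the muscle genes of the set, but not for all genes of the other lists. The rule for names was every listed muscle gene, and up to 3 genes of other lists, called or with the largest difference; bt, RyR, rhea, the Gpdh1 probe set and the marker genes shown by value were chosen after their values were seen. The members and lists were chosen with earlier results of these data known.

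Equal replicate numbers were taken to pair arrays. Between arrays of equal number, departures from each genotype's mean correlated at 0.216, 0.248 and 0.114, each above the bound of 0.1 set for this, and from -0.223 to 0.0573 otherwise. This pairing was read from the values and not from the labels, so the fit with the number as a block may be too favourable. The labels do not say whether replicates are separate cultures, so p-values measure the spread between these arrays.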

Additional observations from a re-analysis of the deposited data

How the results depend on the processing

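Of the 36 muscle probe sets tested, 0 were called in the fit as reported. The count was also 0 with the replicate block, without a filter, with the filter at the 60th percentile (30 tested), with quantile normalization or median centring, with a pseudocount of 16, without the intensity trend, with robust eBayes, with array weights, at a threshold of 0.1, with each array left out in turn, and without both arrays numbered 1. This last alternative was chosen after the data were examined. The replicate block changed no muscle call. Over all settings the smallest limma adjusted p for the brightest probe set of a gene was 0.0597, for Zasp52 without wild-type replicate 1.

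Over all probe sets the count of 293 was 128 without the intensity trend, 572 with array weights, 833 with the replicate block, 683 at a threshold of 0.1, and 451 without both arrays numbered 1. Leaving out single arrays gave between 54 (deletion replicate 2) and 432 (wild-type replicate 1), and 157 or fewer without any of the other arrays. The cause of these changes was not tested.

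The median log2 difference of the general and tubular genes ran from -0.051 (without wild-type replicate 1) to 0.095 (without wild-type replicate 3). That of the flight and jump genes ran from -0.054 to 0.050. Both ranges lay within 1 SD between replicates of the reported value. That SD, 0.13 for the general and 0.12 for the flight and jump genes, is larger than either reported median. Staying within it therefore does not show that the sign is stable. Array weights gave -0.0016 for the general genes. Signs of single genes turned in 33 of 383 recalculations, none past the threshold, with a size of at most 0.14 after the turn (fln). Quantile normalization gave 0.016 for Mlc1 and median centring -0.0069 for Argk. Array weights gave -0.0019 for Actn, -0.011 for SERCA and -0.0016 for Argk. Without both arrays numbered 1 the values were -0.013 for tmod, -0.0015 for Mlp60A, -0.026 for SERCA, 0.050 for Act88F and 0.0056 for Act79B.

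With single arrays left out Prm stayed negative, from -0.30 to -0.060. The log2 differences ran from -0.079 to 0.042 for Mlc1, -0.0049 to 0.20 for Mlc2, -0.0040 to 0.15 for Tm2, -0.052 to 0.25 for sls and -0.28 to 0.027 for Unc-89. They ran from -0.018 to 0.19 for Strn-Mlck, -0.068 to 0.13 for Actn, -0.15 to 0.022 for Mlp84B, -0.051 to 0.077 for SERCA and -0.014 to 0.031 for Argk. For the flight and jump muscle genes they ran from -0.15 to 0.021 for Act88F, -0.14 to 0.55 for fln, -0.11 to 0.80 for TpnC4 and -0.054 to 0.045 for Act79B. Low signal limits what can be said of TpnC4 and of the 3 probe sets left untested.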
